A study of Homo sapiens with 4 samples.

Results

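The 34 genes described here make cholesterol and fatty acids or control that synthesis through the sterol regulatory element-binding proteins (SREBPs). They were chosen by symbol from the pathway, and all 34 were found among the 16057 genes of the table: 18 of sterol synthesis, 8 of fatty acid synthesis, and 8 others, namely 5 of the SREBP machinery and the lipid genes STARD4, MYLIP and LPIN1. Transcripts were measured by RNA sequencing of total RNA from cells of the MM.1S line, which was established from human multiple myeloma, a tumour of plasma cells. Cells received 350 nM JG342, which inhibits HSP70 chaperones at an allosteric site, or the solvent DMSO, and both groups were collected after 26 h. Each group has 2 libraries, described by the submitters as biological duplicates, so the results concern 1 cell line, 1 dose and 1 time, with no inactive compound for comparison.

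SREBPs are made as precursors held in the membrane of the endoplasmic reticulum. When membrane sterol is low, the escort protein SCAP carries them to the Golgi apparatus, where proteases free the part that enters the nucleus and switches on lipid synthesis genes. INSIG proteins hold SCAP in the endoplasmic reticulum when sterol is plentiful. SREBP2, the product of SREBF2, mainly drives sterol genes, and SREBP1, the product of SREBF1, mainly drives fatty acid genes. INSIG1 and both SREBF genes are themselves targets, so their transcripts are commonly read together with those of the enzymes.

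Levels are in TPM, a measure scaled by transcript length and by library total. The TPM totals lay between 994463 and 994718 in the 4 libraries, and TPM values do not record the read depth. The fit covered 12042 genes whose mean over the 4 libraries reached 1 TPM. Across these genes libraries of 1 group correlated more closely (Pearson's r of 0.992 for DMSO and 0.990 for JG342) than libraries of different groups (0.972 to 0.975). All 9 plasma cell markers examined were present, at 22.04 to 1566 TPM. The summed markers of T cells, epithelium, fibroblasts and endothelium were at most 8.19 TPM in any library, and the 3 monocyte markers summed to 37.4 to 46.2 TPM, nearly all of it from LYZ. These sums overlapped between the groups except for the T cell markers, at 5.76 and 7.84 TPM with DMSO and 5.26 and 3.21 TPM with JG342, mostly CD3E, whose part in the results was not tested.

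Fold changes are differences of mean log2(TPM + 1), JG342 minus DMSO, given ± the standard error (SE), and a gene was called when its limma adjusted p was under 0.05. Of the 34 genes, 13 fell (38.2%) and none rose at that threshold, while 21 did not pass. In RNA from a whole culture, fewer cells that express a gene and less RNA per cell cannot be told apart. Among all 12042 genes fitted, 7.62% were called lower and 10.8% higher. The median fold change of the 34 was −0.36, against 0.03 over all fitted genes. The values of the groups did not overlap for 22 of the 34, in each case with JG342 lower, and 28.2% of all fitted genes showed that. Without DMSO replicate 1, DMSO replicate 2 or JG342 replicate 2 the count of falls was 7, 4 and 7, and 3 genes passed when low genes were not filtered out. Calls over all fitted genes also became fewer in each of these settings. Without the filter 295 of all 16057 genes were called lower, against 917 of 12042 with it. In either direction 5.16% were called without the filter, against 18.4% with it. More abundant genes were called lower more often. Of fitted genes with a mean of 100 to 1000 TPM 19.2% were called lower, as were 6 of 12 pathway genes there. Of those with 10 to 100 TPM 7.83% were called lower, as were 7 of the 20 pathway genes there.

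Promoter sequences are shown for 6 of these genes because SREBPs act at promoter sites together with partner factors, so that the letters behind the motif counts can be read. The windows are the 250 bases before a transcription start in RefSeq on GRCh38.p14, printed 5′ to 3′ on the gene's strand. Capitals mark matches on either strand to TCACNCCAC, the core of the classical sterol regulatory element, and to CCAAT, the box bound by the partner factor NF-Y (read as ATTGG on the other strand). SREBF2 lies at chr22:41832855-41833104 (plus strand), EBP at chrX:48521558-48521807 (plus), HMGCS1 at chr5:43313413-43313662 (minus), IDI1 at chr10:1048887-1049136 (minus), DHCR7 at chr11:71448394-71448643 (minus) and INSIG1 at chr7:155297628-155297877 (plus).
SREBF2: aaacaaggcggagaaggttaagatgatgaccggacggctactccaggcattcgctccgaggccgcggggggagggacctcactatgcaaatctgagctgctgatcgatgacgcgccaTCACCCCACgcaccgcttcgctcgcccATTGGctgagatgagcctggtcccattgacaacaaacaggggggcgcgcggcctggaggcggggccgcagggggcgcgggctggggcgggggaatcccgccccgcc
EBP: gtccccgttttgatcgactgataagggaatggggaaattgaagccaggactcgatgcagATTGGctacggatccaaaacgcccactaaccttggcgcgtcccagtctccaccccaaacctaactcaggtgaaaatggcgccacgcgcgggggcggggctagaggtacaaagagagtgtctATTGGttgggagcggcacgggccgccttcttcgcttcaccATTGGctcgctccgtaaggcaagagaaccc
HMGCS1: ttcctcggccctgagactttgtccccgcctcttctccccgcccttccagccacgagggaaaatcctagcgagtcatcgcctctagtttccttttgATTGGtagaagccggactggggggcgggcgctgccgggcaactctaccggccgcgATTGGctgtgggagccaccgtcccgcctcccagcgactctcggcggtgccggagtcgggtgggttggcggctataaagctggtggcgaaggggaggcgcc
IDI1: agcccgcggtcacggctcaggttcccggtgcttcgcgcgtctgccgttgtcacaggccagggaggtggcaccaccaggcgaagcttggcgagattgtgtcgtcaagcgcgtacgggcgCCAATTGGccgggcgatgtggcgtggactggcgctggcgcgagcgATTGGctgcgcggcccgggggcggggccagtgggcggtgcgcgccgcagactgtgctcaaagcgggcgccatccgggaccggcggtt
DHCR7: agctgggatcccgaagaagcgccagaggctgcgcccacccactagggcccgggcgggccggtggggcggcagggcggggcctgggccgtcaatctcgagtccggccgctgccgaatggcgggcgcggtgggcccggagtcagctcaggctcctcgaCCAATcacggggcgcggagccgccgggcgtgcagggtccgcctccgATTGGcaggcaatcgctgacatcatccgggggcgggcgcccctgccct
INSIG1: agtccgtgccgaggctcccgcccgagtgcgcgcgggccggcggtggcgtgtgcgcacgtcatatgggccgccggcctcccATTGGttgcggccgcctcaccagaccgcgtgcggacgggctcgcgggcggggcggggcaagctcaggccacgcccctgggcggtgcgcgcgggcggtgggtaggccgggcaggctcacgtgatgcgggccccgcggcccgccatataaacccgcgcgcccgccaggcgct

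SREBF2 was the 1 member with TCACNCCAC in this window, 133 to 125 bases before the start, of 30 members with an entry. That motif was in 1.23% of the 9617 fitted genes with an entry and in 0.883% of all 35116 promoter entries. EBP, HMGCS1, IDI1 and DHCR7 were the called genes with at least 2 CCAAT matches and the smallest p, and they and INSIG1 were picked for printing after their values were seen. CCAAT was found in an entry of 21 of the 30 members (70%), of 13 of 15 sterol synthesis genes (86.7%) and of 4 of 7 fatty acid synthesis genes (57.1%), against 41.8% of fitted genes and 32.0% of all entries. At least 2 matches were found in 9 of the 15 sterol synthesis genes (60%) and in 15.4% of fitted genes. Of the members that fell, 8 of 10 with an entry had at least 2 matches, and of the members that did not pass, 6 of 20. Of all fitted genes called lower with an entry, 22.1% had at least 2 matches. The GC-rich box GGGCGG, bound by Sp1, was in 29 of the 30 members and in 73.8% of fitted genes. IDI1 has 2 overlapping matches, on opposite strands. A match describes letters in this window and was not tested for binding, and genes with several entries were counted if any entry matched. ACAT2, FDFT1, SQLE and FASN had no entry.

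Within the SREBP machinery, INSIG1 and SREBF1 fell, and SREBF2, SCAP and INSIG2 did not pass. INSIG1 (NM_001346590), the retention factor whose transcription follows SREBP activity, was at 747 and 608 TPM in DMSO replicates 1 and 2 and at 347 and 197 TPM in JG342 replicates 1 and 2. Its groups did not overlap, and the JG342 mean was 40.1% of the DMSO mean. The fold change was −1.36 ± 0.22 (limma adjusted p 0.00505), which ranked 18 from the bottom among all fitted genes. INSIG2 (NM_001321329), its paralogue, which is not a classical SREBP target, was at 25.5 and 23.1 TPM with DMSO and at 26.9 and 22.5 TPM with JG342. Those groups overlapped, and the fold change of 0.02 ± 0.13 had a 95% confidence interval from −0.28 to 0.32 (limma adjusted p 0.933). The intervals of INSIG1 (−1.87 to −0.86) and INSIG2 did not overlap. The difference between the paralogues was not itself tested.

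SREBF1 (NM_001005291), which encodes SREBP1, was at 61.0 and 45.1 TPM with DMSO and at 39.8 and 25.8 TPM with JG342. Both JG342 libraries lay below both DMSO libraries, but DMSO replicate 2 was closer to JG342 replicate 1 than to the other DMSO library. The fold change was −0.69 ± 0.20 (limma adjusted p 0.0462), close to the threshold. It was −0.48 (limma adjusted p 0.236) without DMSO replicate 1, −0.91 (0.0558) without DMSO replicate 2 and −0.39 (0.159) without JG342 replicate 2. It also missed the threshold after scaling to equal medians (0.0539). Exons of SREBF1 overlap those of RAI1 on the opposite strand, and RAI1 was at 7.58 and 8.42 TPM with DMSO and 11.9 and 10.8 TPM with JG342.

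SREBF2 (NM_004599), which encodes SREBP2, was at 135 and 132 TPM with DMSO and at 159 and 118 TPM with JG342. The JG342 libraries lay on either side of the DMSO libraries, and the fold change was 0.04 ± 0.14 (95% confidence interval −0.27 to 0.34, limma adjusted p 0.879). SCAP (NM_001320044), the escort protein, was at 38.8 and 41.4 TPM with DMSO and at 41.3 and 40.1 TPM with JG342. Its fold change of 0.02 ± 0.11 had an interval from −0.22 to 0.27. For SREBF2, SCAP and INSIG2 the sign of these small values turned negative after scaling to equal medians.

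**Figure D1:**
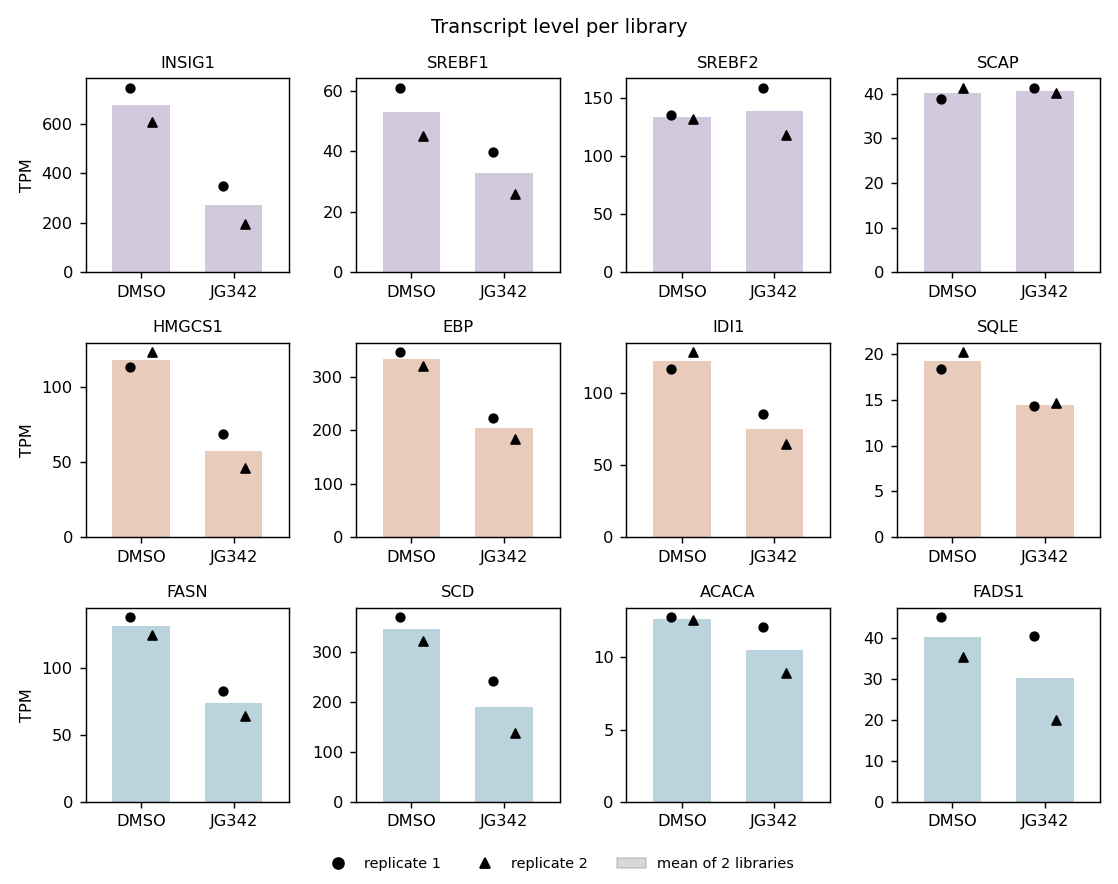
Transcript level in TPM for 12 of the genes, with the 2 libraries of each group as points (circles, replicate 1; triangles, replicate 2) and the mean of the 2 as a bar starting at 0. For INSIG1, SREBF1, HMGCS1, EBP, IDI1, FASN and SCD both JG342 libraries lie below both DMSO libraries, while SREBF2 and SCAP overlap between the groups.

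Sterol synthesis begins with acetyl-CoA, passes through mevalonate and the isoprenoid units to squalene, and ends with the cyclised sterols. Of the 18 sterol synthesis genes 9 fell (50%, against 7.62% of all fitted genes) and 9 did not pass, and none was called higher. The median fold change was −0.38, with 17 estimates below 0 and TM7SF2 above it. Without DMSO replicate 1, DMSO replicate 2, JG342 replicate 1 and JG342 replicate 2 in turn, the median of the 18 was −0.46, −0.36, −0.49 and −0.35. Over all fitted genes it was 0.01, 0.05, 0.004 and 0.05. Fewer of the 18 passed in these fits, except without JG342 replicate 1, and fewer of all fitted genes passed in each. The direction of the 9 called genes held throughout. The largest fall was that of HMGCS1 (NM_001098272), the synthase that makes HMG-CoA, at 113 and 123 TPM with DMSO and 68.7 and 45.7 TPM with JG342. Its fold change was −1.06 ± 0.17 (limma adjusted p 0.00446), a drop to 48.4% of the DMSO mean with the groups well apart. HMGCS1 and INSIG1 passed under 12 of the 13 alternative settings tried, the exception being the fit without the filter on low genes (limma adjusted p 0.0583 and 0.0691).

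The other enzymes that act before squalene fell less, and PMVK did not pass. ACAT2 (NM_001303253), which condenses acetyl-CoA in the cytosol, was at 75.4 and 79.4 TPM with DMSO and 55.6 and 49.1 TPM with JG342, a fold change of −0.56 ± 0.11 (limma adjusted p 0.00974). MVK (NM_000431), mevalonate kinase, was at 17.9 and 19.5 TPM against 14.1 and 10.4 TPM with JG342, by −0.59 ± 0.16 (limma adjusted p 0.0366). PMVK (NM_001323011), which adds the next phosphate, was at 176 and 181 TPM against 177 and 168 TPM, with overlapping groups and a fold change of −0.05 ± 0.09 (95% confidence interval −0.26 to 0.15). MVK and PMVK catalyse consecutive steps, and their intervals (−0.95 to −0.22 for MVK) overlapped slightly. ACAT2 missed the threshold without DMSO replicate 2 (limma adjusted p 0.0766), and MVK without DMSO replicate 1, DMSO replicate 2 or JG342 replicate 2 (0.103, 0.188 and 0.139).

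MVD (NM_002461), the decarboxylase that follows, was at 26.4 and 29.2 TPM with DMSO and 21.0 and 19.7 TPM with JG342, by −0.43 ± 0.12 (limma adjusted p 0.0410). IDI1 (NM_001317955), which interconverts the isoprenoid units, was at 116 and 128 TPM against 85.4 and 64.3 TPM, by −0.71 ± 0.14 (limma adjusted p 0.00974). FDPS (NM_001135821), the farnesyl diphosphate synthase that aminobisphosphonate drugs inhibit, was the most abundant of the 18, at 594 and 572 TPM against 491 and 417 TPM, by −0.37 ± 0.10 (limma adjusted p 0.0402). FDFT1 (NM_001287742), squalene synthase, was at 282 and 305 TPM against 234 and 208 TPM, by −0.41 ± 0.10 (limma adjusted p 0.0224). In all 4 the groups did not overlap, and JG342 replicate 2 was the lowest library. MVD, FDPS and FDFT1 missed the threshold without DMSO replicate 1, DMSO replicate 2 or JG342 replicate 2 (limma adjusted p 0.0661 to 0.244), MVD also without JG342 replicate 1 (0.0662), and IDI1 without DMSO replicate 2 (0.0721).

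From squalene onwards EBP and DHCR7 were the genes that passed. EBP (NM_006579), the sterol isomerase, was at 346 and 321 TPM with DMSO and 223 and 184 TPM with JG342, by −0.71 ± 0.11 (limma adjusted p 0.00414). DHCR7 (NM_001163817), which reduces 7-dehydrocholesterol, was at 106 and 108 TPM against 82.0 and 66.0 TPM, by −0.53 ± 0.12 (limma adjusted p 0.0169). EBP and FASN were the 2 members called under all 13 alternative settings tried. DHCR7 missed the threshold without DMSO replicate 1 (−0.55, limma adjusted p 0.0711), DMSO replicate 2 (−0.52, 0.0975) or JG342 replicate 2 (−0.38, 0.0676).

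SQLE (NM_003129), squalene epoxidase, was at 18.4 and 20.2 TPM with DMSO and 14.4 and 14.6 TPM with JG342, without overlap. Its fold change of −0.39 ± 0.13 did not pass (limma adjusted p 0.0664). LSS (NM_001001438), which cyclises the epoxide to lanosterol, was at 118 and 113 TPM against 102 and 86.6 TPM, with a fold change of −0.29 ± 0.11 (limma adjusted p 0.0977). Both missed the threshold although every JG342 library lay below every DMSO library, as it also did for CYP51A1, MSMO1 and NSDHL.

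CYP51A1 (NM_000786), the lanosterol demethylase, was at 158 and 155 TPM with DMSO and 149 and 102 TPM with JG342, and MSMO1 (NM_001017369), which acts next on the methyl groups, was at 211 and 196 TPM against 189 and 138 TPM. Their fold changes were −0.34 ± 0.16 and −0.33 ± 0.14 (limma adjusted p 0.167 and 0.139), and most of each difference came from JG342 replicate 2. NSDHL (NM_001129765), a dehydrogenase of the same demethylation, had a fold change of −0.24 ± 0.12, and HSD17B7 (NM_001304512), the ketoreductase, of −0.36 ± 0.19. The DMSO libraries of HSD17B7 stood apart, at 50.3 and 80.3 TPM, and overlapped the JG342 values of 47.0 and 51.7 TPM. SC5D (NM_001024956), the sterol desaturase, and TM7SF2 (NM_001277233), a sterol reductase, had overlapping groups and fold changes of −0.14 ± 0.16 and 0.17 ± 0.20. TM7SF2 was at 33.3 and 20.1 TPM with DMSO and 30.8 and 27.8 TPM with JG342, and its value was −0.18 without DMSO replicate 2.

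Set by step, a division made after the values were seen, 7 of 8 genes acting before squalene fell and 2 of 10 from squalene onwards, with median fold changes of −0.49 and −0.34, where 7.62% of all fitted genes were called lower. The contrast in counts rests on genes near the threshold and depends on the setting. With the replicate number as a block 1891 of all 12042 fitted genes were called lower, and the counts by step were 7 of 8 and 7 of 10. Without JG342 replicate 2 they were 3 and 1, without DMSO replicate 2 they were 1 and 1, and without JG342 replicate 1 they were 6 and 4. Over all fitted genes calls were fewer in each of these leave-out fits. The medians kept this order in every setting tried, at −0.38 and −0.16 without JG342 replicate 2. All settings reuse the libraries on which the division was chosen, so they are no independent check of it.

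**Figure D2:**
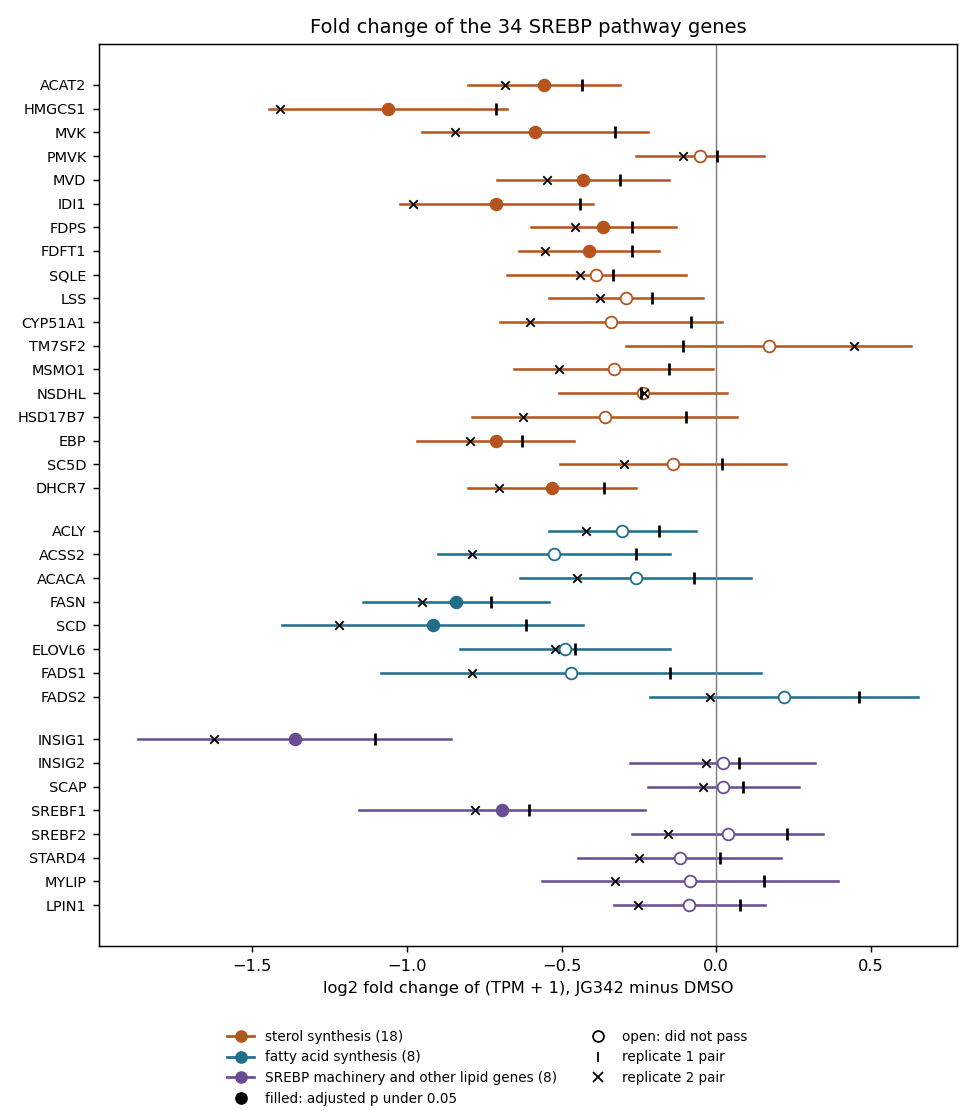
Fold change of each of the 34 genes on the log2(TPM + 1) scale, JG342 minus DMSO, with its 95% confidence interval as a line, filled circles for limma adjusted p under 0.05, bars for the replicate 1 pair and crosses for the replicate 2 pair. The 13 filled circles all lie below 0, from −1.36 for INSIG1 to −0.37 for FDPS, and the crosses lie left of the bars for 32 of 34 genes.

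Fatty acid synthesis turns cytosolic acetyl-CoA into palmitate, which is then elongated and desaturated. Of its 8 genes FASN and SCD fell (25%, against 7.62% of all fitted genes) and 6 did not pass, and the median fold change was −0.48. Without DMSO replicate 1, DMSO replicate 2, JG342 replicate 1 and JG342 replicate 2 in turn, the median of the 8 was −0.45, −0.43, −0.59 and −0.26. Fewer of the 8 passed without DMSO replicate 1 or DMSO replicate 2, and more passed without JG342 replicate 1. Over all fitted genes fewer passed in each of these fits. FASN (NM_004104), the fatty acid synthase, was at 138 and 124 TPM with DMSO and 82.7 and 63.8 TPM with JG342. The groups were well apart, and the fold change was −0.84 ± 0.13 (limma adjusted p 0.00424), a drop to 55.9% of the DMSO mean. SCD (NM_005063), the desaturase that makes oleate, was at 369 and 321 TPM against 241 and 137 TPM. The JG342 libraries differed from each other more than the DMSO libraries did, and the fold change was −0.92 ± 0.22 (limma adjusted p 0.0199). SCD missed the threshold without DMSO replicate 1 (−0.82, limma adjusted p 0.0961) or DMSO replicate 2 (−1.02, 0.0634) and after quantile normalization (−0.86, 0.0593).

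The enzymes that supply acetyl-CoA had lower values that did not pass. ACLY (NM_001096), which cleaves citrate, was at 108 and 111 TPM with DMSO and 94.5 and 82.4 TPM with JG342, with a fold change of −0.30 ± 0.10 (limma adjusted p 0.0756). ACSS2 (NM_001076552), which activates acetate, was at 14.3 and 15.7 TPM against 11.8 and 8.67 TPM, with −0.53 ± 0.17 (limma adjusted p 0.0582). ACACA (NM_198834), the carboxylase that makes malonyl-CoA, was at 12.8 and 12.6 TPM against 12.2 and 8.95 TPM, with −0.26 ± 0.16 (limma adjusted p 0.305). None of these overlapped between the groups, though JG342 replicate 1 of ACACA lay just under the DMSO values.

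ELOVL6 (NM_001130721), the elongase of palmitate, was at 9.93 and 11.3 TPM with DMSO and 6.97 and 7.58 TPM with JG342. Its fold change of −0.49 ± 0.15 lay just outside the threshold (limma adjusted p 0.0525), and with ACSS2 it passed after scaling to equal medians (limma adjusted p 0.0367 and 0.0401). After that scaling 5 of the 8 genes passed, and 1200 of all 12042 fitted genes were called lower, against 917 without it. FADS1 (NM_013402), which makes polyunsaturated fatty acids, was at 45.1 and 35.2 TPM against 40.5 and 19.9 TPM. Its groups overlapped, and its value of −0.47 ± 0.27 rested on JG342 replicate 2, since it was 0.02 without that library. FADS2 (NM_001281501), the neighbouring desaturase, was low, at 3.30 and 3.68 TPM against 4.92 and 3.61 TPM, with 0.22 ± 0.19 (limma adjusted p 0.457). Exons of FADS1 and FADS2 overlap on opposite strands, so reads there cannot be assigned to either gene unless the counting used strand.

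Of the 3 remaining lipid genes none passed. STARD4 (NM_001308056), a carrier of sterol between membranes, was at 25.8 and 24.1 TPM with DMSO and 26.0 and 20.1 TPM with JG342. MYLIP (NM_013262), a ubiquitin ligase induced by sterol through the LXR receptors, was at 11.8 and 10.3 TPM against 13.2 and 8.03 TPM. LPIN1 (NM_001261427), a phosphatidate phosphatase, was at 110 and 124 TPM against 116 and 104 TPM. In all 3 the groups overlapped, with fold changes of −0.12 ± 0.14, −0.09 ± 0.21 and −0.09 ± 0.11 (limma adjusted p 0.606, 0.816 and 0.610).

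Sterol and fatty acid synthesis genes had medians of −0.38 and −0.48, and the order of the groups was not settled. The sterol median minus the fatty acid median was 0.10, but it was −0.05 in the replicate 1 pair and 0.10 in the replicate 2 pair. It was −0.09 without JG342 replicate 2 and −0.01 without DMSO replicate 1. It was 0.19 after quantile normalization and 0.02 on the log2(TPM + 5) scale. By call, 9 of 18 sterol genes (50%) and 2 of 8 fatty acid genes (25%) fell, where 7.62% of all fitted genes were called lower. The groups differed in level, with median DMSO means of 111 TPM for sterol and 27.6 TPM for fatty acid genes. Of all fitted genes 19.2% were called lower at 100 to 1000 TPM and 7.83% at 10 to 100 TPM. After scaling to equal medians 10 of 18 sterol and 5 of 8 fatty acid genes fell, so the counts do not settle the order either. Under that scaling 1200 of all 12042 fitted genes were called lower, against 917 without it. The difference was not tested, because the genes of a pathway are not replicates. In summed level, the 18 sterol genes held 2517 and 2518 TPM with DMSO and 2051 and 1707 TPM with JG342, that is 81.5% and 67.8% of the DMSO mean. The 8 fatty acid genes held 700 and 635 TPM with DMSO and 494 and 332 TPM with JG342, or 74.0% and 49.8%. SCD is the largest part of the fatty acid sum, and without it the shares were 78.7% and 60.5%.

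**Figure D3:**
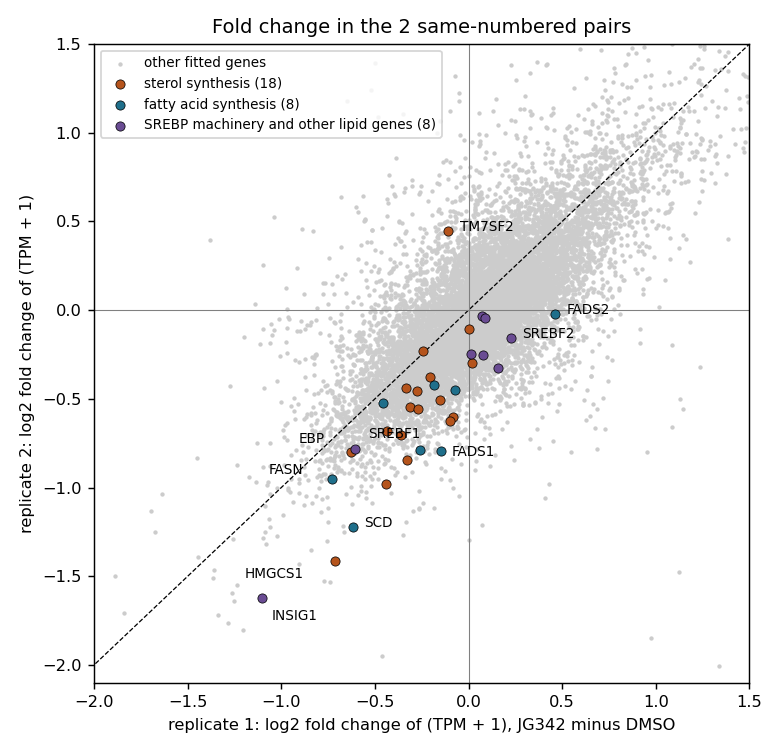
Fold change on the log2(TPM + 1) scale in the replicate 1 pair (horizontal axis) and the replicate 2 pair (vertical axis), with the 34 genes in colour, other fitted genes in grey and equal values on the dashed line; grey points beyond the axes are not drawn. All but 2 of the 34 genes lie below the dashed line, and 24 lie below 0 in both pairs.

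The size of the fall differed between the same-numbered pairs. The value was lower in the replicate 2 pair for 32 of the 34 genes (94.1%), and for 63.3% of all fitted genes. For the sterol genes the median was −0.27 in the replicate 1 pair and −0.55 in the replicate 2 pair, and for the fatty acid genes −0.22 and −0.66. The difference lay in the JG342 libraries: replicate 2 was below replicate 1 for 31 of the 34 genes (91.2%), with a median difference of −0.33, against 56.5% and −0.03 over all fitted genes. Between the DMSO libraries replicate 2 was the lower for 18 of the 34, with a median difference of −0.02. Of the 34, 24 (70.6%) were lower in both pairs and none was higher in both, against 34.9% of all fitted genes lower in both, while the other 10 had no shared direction. HMGCS1 showed this plainly, at 58.1% of the DMSO mean in JG342 replicate 1 and 38.7% in replicate 2. The labels give the 2 JG342 cultures the same dose and the same collection time. Whether these cultures differed in another property is not given in the labels and was not tested.

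**Figure D4:**
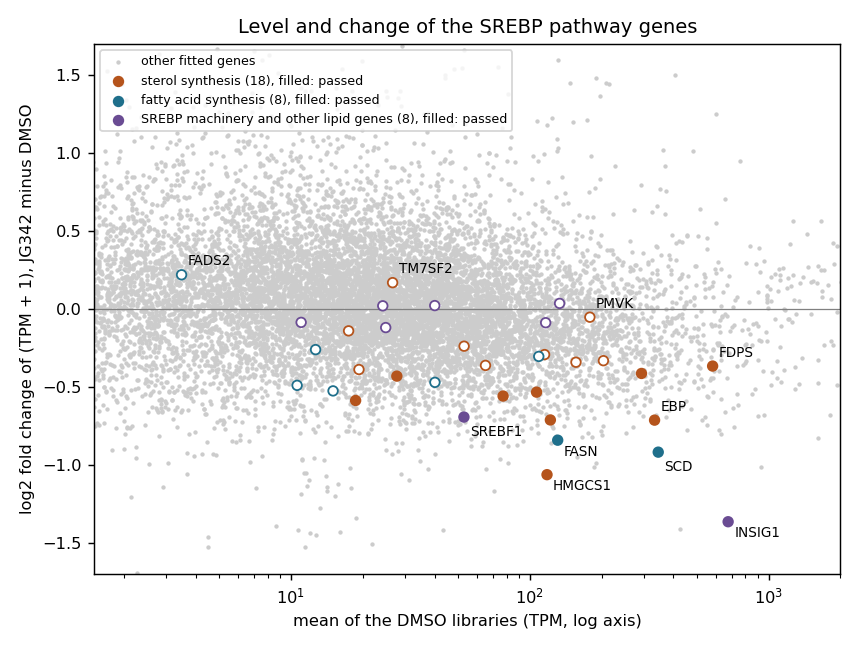
Mean TPM of the DMSO libraries on a log axis against the fold change on the log2(TPM + 1) scale, with the 34 genes as coloured circles (filled where the limma adjusted p was under 0.05) and other fitted genes in grey; grey points beyond the axes are not drawn. The called genes lie between MVK at 18.7 TPM and INSIG1 at 677 TPM, and the gene of lowest level, FADS2 at 3.49 TPM, is among those that did not pass.

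Further genes of lipid metabolism came from 6 lists taken from the pathways around these enzymes, with 89 genes in all and 85 fitted. Of the 85, 6 rose and 6 fell (14.1% called), against 18.4% of all fitted genes called in either direction, and their median fold change was 0.00. Among the 85, fewer genes passed without DMSO replicate 1, DMSO replicate 2 or JG342 replicate 2, and so did fewer of all fitted genes. The list of fatty acid precursor supply and elongation had 3 genes higher and 3 lower of 19 (31.6% called). IDH1, the cytosolic isocitrate dehydrogenase that makes NADPH, rose from 40.5 and 35.6 TPM to 175 and 136 TPM, by 1.99 (limma adjusted p 6.1e-05). MID1IP1, a regulator of acetyl-CoA carboxylase, rose by 0.67 and ACSL1, which activates fatty acids, by 0.58. HACD3 and TECR, enzymes of the elongation cycle, fell by 0.66 and 0.43 on the log2 scale. SLC25A1, the citrate carrier that feeds cytosolic acetyl-CoA, fell by 0.47 on that scale, from 109 and 111 TPM to 82.9 and 75.8 TPM.

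In the list of SREBP processing and sterol-regulated degradation, 2 of 15 genes rose (13.3%). That is near the 10.8% of all fitted genes called higher. SEC24D, a cargo adaptor of the vesicles that leave the endoplasmic reticulum, rose by 0.61 and ERLIN2, which takes part in degradation there, by 0.46 (limma adjusted p 0.0243 and 0.0317). MBTPS1, the protease that makes the opening cut in SREBPs, was at 37.9 and 35.0 TPM with DMSO and 39.7 and 34.01 TPM with JG342, and its partner MBTPS2 had a fold change of 0.30 (limma adjusted p 0.263). In the isoprenoid branch PDSS1, which builds the tail of coenzyme Q, fell by 0.70 on the log2 scale (limma adjusted p 0.00776). PDSS1 was the 1 call of 10 (10%), against 18.4% of all fitted genes called in either direction. GGPS1, next by p, had 0.27 (limma adjusted p 0.101).

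Sterol export, esterification and lysosomal release had 1 call of 11, LIPA, the lysosomal acid lipase, which fell by 0.43 on the log2 scale (limma adjusted p 0.0459); NR1H2, an LXR receptor, had 0.26 (0.0954). ABCA1, the sterol exporter induced by LXR, was under 1 TPM in every library and was not fitted. Glycerolipid synthesis had 1 call of 16, AGPAT5, lower by −0.49 (limma adjusted p 0.0152), and PTDSS1 was next with −0.27 (0.129). Fatty acid oxidation had 1 call of 14, ECI1, an isomerase of unsaturated chains, which rose by 0.52 (limma adjusted p 0.0136); CPT2 was next with 0.30 (0.108). In this order, the lists had 9.09%, 6.25% and 7.14% of their fitted genes called, against 18.4% of all fitted genes. The median fold change of the oxidation list was 0.17 and that of glycerolipid synthesis −0.10.

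Some of the values can hold reads of other genes. At a minimum of 95% identity and 20% coverage of the transcript, CYP51A1, SCD and HSD17B7 matched pseudogene transcripts, with HSD17B7P2 covering 98.8% of HSD17B7. Exons of 15 of the 34 genes overlap exons of another gene on the opposite strand, and for 5 of them that gene is protein-coding. The labels do not say whether counting used strand. HMGCS1, FDPS and IDI1 overlap antisense genes over 703, 693 and 643 bases. CYP51A1 shares 2844 exon bases with AC000120.2 on its own strand. ACAT2 overlaps TCP1, which fell by 0.56 on the log2 scale, and SOD2, which fell by 0.47. MVK overlaps MMAB, which was at 15.4 and 17.3 TPM with DMSO and 15.3 and 14.8 TPM with JG342. The part of these overlaps in the fold changes was not tested.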

How the data were processed

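RNA was sequenced from 2 DMSO and 2 JG342 libraries of MM.1S cells. The authors deposited 1 value per gene and library, taken here to be TPM because the libraries sum to between 994463 and 994718 and the submitters' processing notes name RSEM 1.2.12, with HISAT2 2.0.4 and Bowtie2 2.2.5; roles, genome build, annotation and filters are not given in the sources used here. TPM removes depth, so read depth is unknown and no counting interval was derived.

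The 12042 genes whose mean reached 1 TPM were fitted on log2(TPM + 1), a scale that understates changes of low genes; 4015 were left out. limma 3.58.1 in R 4.3.3 (lmFit, eBayes with a mean-variance trend) tested treatment, two-sided, with Benjamini-Hochberg adjustment over all fitted genes, a threshold of 0.05, 2 residual and 6.89 prior degrees of freedom. Such a model is needed because an exact permutation test of 2 against 2 cannot go below 0.333. The procedure was tested on simulated data with 200 changed genes. It called 12% of changes of 0.5 on the log2 scale, 72% of changes of 1 and 98% of changes of 2. Of its calls there 3.79% were unchanged genes. Not passing therefore does not show that a gene was unchanged. Fewer genes were changed in the simulation than the 2221 called here. Its spreads were drawn from the fitted model with independent noise, so it could not test those assumptions. In the real data the deviations of same-numbered libraries correlated across genes at 0.27. These shares may therefore differ for the real data. P-values set a difference against an estimated spread, which draws on these libraries and on the trend over all fitted genes.

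The members and lists were chosen with earlier results of these data known. Values are given for all members; from each further list the rule named the 2 genes with the smallest p, and all those called where 5 or fewer. MBTPS1, MBTPS2, ABCA1 and, in the supply and elongation list with its 6 calls, the 4 called genes beyond the leading pair were added after their values were seen. The rule for promoters took members with TCACNCCAC, which SREBF2 alone met; the other 5 printed were added after values were seen. The INSIG proteins, also planned, are not printed. No test was run over a list. Similar transcripts were sought in GENCODE 29 by BLAST 2.17.0, with 32 members matched by accession and 2 by symbol. Alternatives covered pseudocount, filter, scaling, variance trend, replicate block and each library left out. CD3D was not analysed here.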

Additional observations from a re-analysis of the deposited data

How the results depend on the processing

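Of 441 values for single genes under the 13 alternatives, 345 kept their direction and their side of the threshold, 44 fell out of it, 34 came into it and 18 changed sign; the 13 called genes stayed below 0 throughout. With 2 libraries a group, the spread estimate decides many calls. All 13 alternatives were fixed with earlier results known, and the split by step was chosen after seeing the data. The counts below are of all genes (2221 as reported), the 34 pathway genes (13), sterol (9), fatty acid (2), machinery and other lipid genes (2) and further-list genes (12), and what is not listed stayed within 1.5 times. Fitting every gene without the filter left 828, 3, 2, 1, 0 and 7. Dropping the mean-variance trend left 6 pathway, 4 sterol, 1 fatty acid, 1 machinery and 6 further-list genes. A minimum mean of 5 TPM gave 4 fatty acid genes. Equal medians gave 5 fatty acid genes and 1 of the machinery, and quantile normalization 1 of the machinery. Equal medians also moved the share of higher genes among all called from 58.7% to 44.6%, and the median of all genes from 0.03 to −0.03.

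The replicate number was used as a block as an alternative. Deviations of same-numbered libraries correlated across genes at 0.27 (0.52 over the 34 pathway genes), the sample descriptions of such libraries share a prefix of unstated meaning, and with 2 pairs this does not establish pairing. The block gave 4207 genes in all, 22 pathway, 14 sterol, 6 fatty acid and 24 further-list genes, and with equal medians 3985, 23, 15, 6 and 26. Sterol genes called before squalene and from squalene onwards were 7 of 8 and 7 of 10 with the block, and 7 and 8 with block and equal medians, so the split of 7 and 2 did not hold there. The block fit has 1 residual degree of freedom. Without equal medians its prior degrees of freedom were infinite, so the trend alone set the spread of every gene. With equal medians they were 7.49.

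Leaving out each library in turn, assuming the lone library of a group varies like the others, gave 767 to 1825 genes in all, 4 to 16 pathway, 2 to 10 sterol, 1 to 4 fatty acid, 1 to 2 machinery and 4 to 11 further-list genes. The fewest came without DMSO replicate 2. The sterol minus fatty acid median ran from −0.089 to 0.103; it was 0.195 with quantile normalization and 0.0231 on the log2(TPM + 5) scale. Signs also changed for genes that did not pass. These leave-out ranges were −0.96 to 0.025 for FADS1, −0.10 to 0.14 for INSIG2, −0.41 to 0.24 for MYLIP, −0.35 to 0.070 for SC5D, −0.023 to 0.068 for SCAP, −0.18 to 0.25 for SREBF2, −0.30 to 0.058 for STARD4 and −0.18 to 0.52 for TM7SF2. With equal medians, with or without the block, INSIG2 was −0.046, SCAP −0.045 and SREBF2 −0.032. With quantile normalization INSIG2 was −0.037 and SCAP −0.011. The cause of these changes was not tested.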
